A study of Mus musculus with 2 samples.

Results

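Creatine genes were followed in pancreatic islet cells of C57BL/6J mice, an inbred laboratory strain, after a high-fat or a chow diet. The members were the 5 genes Gatm, Gamt, Ckb, Ckmt1 and Slc6a8, found by symbol among the 27998 genes of the deposited count tables. They had been picked because of their levels by cell type and their HFD against chow values in these same libraries, so all levels and ratios below are descriptions and carry no test. The HFD mice (5 animals) received a diet with 60% fat and the chow mice (4 animals) a regular diet, both for 6 weeks from weaning. All mice were wild type; sex is not given in the sources used here. Islets were picked by hand and kept in culture overnight before they were dispersed with trypsin, so both groups of cells had spent a night outside the animal. Each diet gave 1 single-cell library of cells from pooled or unlabelled animals, and no cell could be tied to a mouse. Differences between the libraries and differences between the diets therefore cannot be told apart, and no p-value is given.

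Creatine and phosphocreatine form a buffer for ATP. Glycine amidinotransferase, encoded by Gatm, joins arginine and glycine into guanidinoacetate with release of ornithine, and this is the rate-limiting step of creatine synthesis. Guanidinoacetate N-methyltransferase, encoded by Gamt, then adds a methyl group from S-adenosylmethionine to give creatine. Cells can also take creatine up from the blood through the sodium- and chloride-dependent carrier SLC6A8. Creatine kinases move the phosphate between ATP and creatine, in the cytosol through the brain-type subunit encoded by Ckb and between the mitochondrial membranes through the ubiquitous isoform encoded by Ckmt1. In the human pancreas, the acinar cells that surround the islets are known for strong GATM expression. In beta cells, which secrete insulin when glucose raises ATP, a phosphocreatine buffer has been studied as one route by which ATP reaches the plasma membrane.

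The windows upstream of the transcription start are shown for the synthesis enzyme that was higher in beta cells of the HFD library and for the kinases, which were not past 1.5-fold, so that their core promoters can be compared. Each window holds the 250 bases before the start, read 5′ to 3′ along the gene's strand from RefSeq (GRCm38.p6), and 4 of the 5 members had one. Capitals mark TATAAA (or TTTATA, the same motif on the other strand) and CCAAT (or ATTGG).
Gatm, chr2:122611278-122611527, minus strand: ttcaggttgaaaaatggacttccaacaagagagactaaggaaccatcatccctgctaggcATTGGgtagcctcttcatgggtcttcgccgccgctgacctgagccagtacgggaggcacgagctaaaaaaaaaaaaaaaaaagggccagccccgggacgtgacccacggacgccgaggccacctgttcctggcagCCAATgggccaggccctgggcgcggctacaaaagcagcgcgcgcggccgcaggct
Ckb, chr12:111672339-111672588, minus strand: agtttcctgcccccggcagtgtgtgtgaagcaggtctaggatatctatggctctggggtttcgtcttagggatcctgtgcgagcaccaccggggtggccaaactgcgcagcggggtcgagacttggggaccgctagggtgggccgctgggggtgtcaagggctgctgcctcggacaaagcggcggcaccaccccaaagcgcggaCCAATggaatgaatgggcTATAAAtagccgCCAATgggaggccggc
Ckmt1, chr2:121357526-121357775, plus strand: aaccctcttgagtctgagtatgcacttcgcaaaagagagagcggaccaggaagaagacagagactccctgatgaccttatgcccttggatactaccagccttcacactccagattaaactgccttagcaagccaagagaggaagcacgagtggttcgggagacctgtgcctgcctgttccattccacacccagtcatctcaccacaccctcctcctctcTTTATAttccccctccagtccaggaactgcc
The Gatm window has no TATAAA on either strand. It holds CCAAT from 55 to 51 bases before the start and ATTGG from 190 to 186 bases before it. The Ckb window has TATAAA from 28 to 23 bases before the start, between a CCAAT at 46 to 42 and another at 16 to 12. The RefSeq table holds a pair of windows for Ckmt1. The window shown, before the upstream one, has TTTATA from 31 to 26 bases before the start and neither CCAAT nor ATTGG. The other window (chr2:121358360-121358609, plus strand), not printed, has ATTGG from 242 to 238 bases before its start and no TATAAA on either strand. The files do not tell which start was used. The E box CACGTG, which reads the same on both strands, was searched too and was in none of these windows. No match overlapped another. Of 32851 windows of this length over all genes, 12.4% held TATAAA on either strand, 33.8% held CCAAT and 6.02% held CACGTG. These shares count a match anywhere in the window, and the share at a given distance from the start was not counted. The GC content was 59.2% for Gatm, 62.8% for Ckb and 52.8% for Ckmt1.

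RNA was captured in droplets at its 3′ end (10x Genomics, version v2) and read out as unique molecular identifiers (UMIs), 1 for each captured RNA molecule. The HFD library held 4539 barcodes with 68544729 UMIs and the chow library 6509 barcodes with 89292222 UMIs, with a median of 13911 UMIs per barcode under HFD and 12414 under chow. Cells were typed by hormone share. A cell with at least 20% of its UMIs from Ins1 and Ins2 was a beta cell, else one with 5% or more Gcg an alpha cell, else one with 1% or more Sst a delta cell, else one with 15% or more Ppy a PP cell. This gave 3189 HFD and 4664 chow beta cells, 407 HFD and 795 chow alpha cells, 403 HFD and 469 chow delta cells, and 160 HFD and 203 chow PP cells. Markers outside the gates followed the names. Slc2a2, the glucose carrier GLUT2, stood at 92.9 CPM in HFD and 78.1 CPM in chow beta cells but at no more than 9.09 CPM in the other gated types. Hhex, a delta cell transcription factor, was at 217 CPM in HFD and 216 CPM in chow delta cells. The delta gate is wide, however: 317 of 403 HFD and 375 of 469 chow delta cells also had 1% or more of their UMIs from Ppy. Among the remaining cells, clusters made without the 5 members gave 131 HFD and 179 chow endothelial-like cells and 74 HFD and 54 chow macrophage-like cells. A further cluster led by Mgp, Igfbp5 and Bgn stayed unnamed (64 HFD and 39 chow cells).

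Levels are counts per 1000000 UMIs of the type (CPM), summed over its cells, with exact Poisson 95% intervals that cover counting error only. Because 1 UMI stands for 1 molecule's 3′ end, a level says nothing about transcript length, and levels are compared between cell types for 1 gene, not between genes. Insulin takes most UMIs of a beta cell and dilutes its other genes, so levels or ratios without the hormone genes in the denominator are given beside several comparisons between types.

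**Figure D1:**
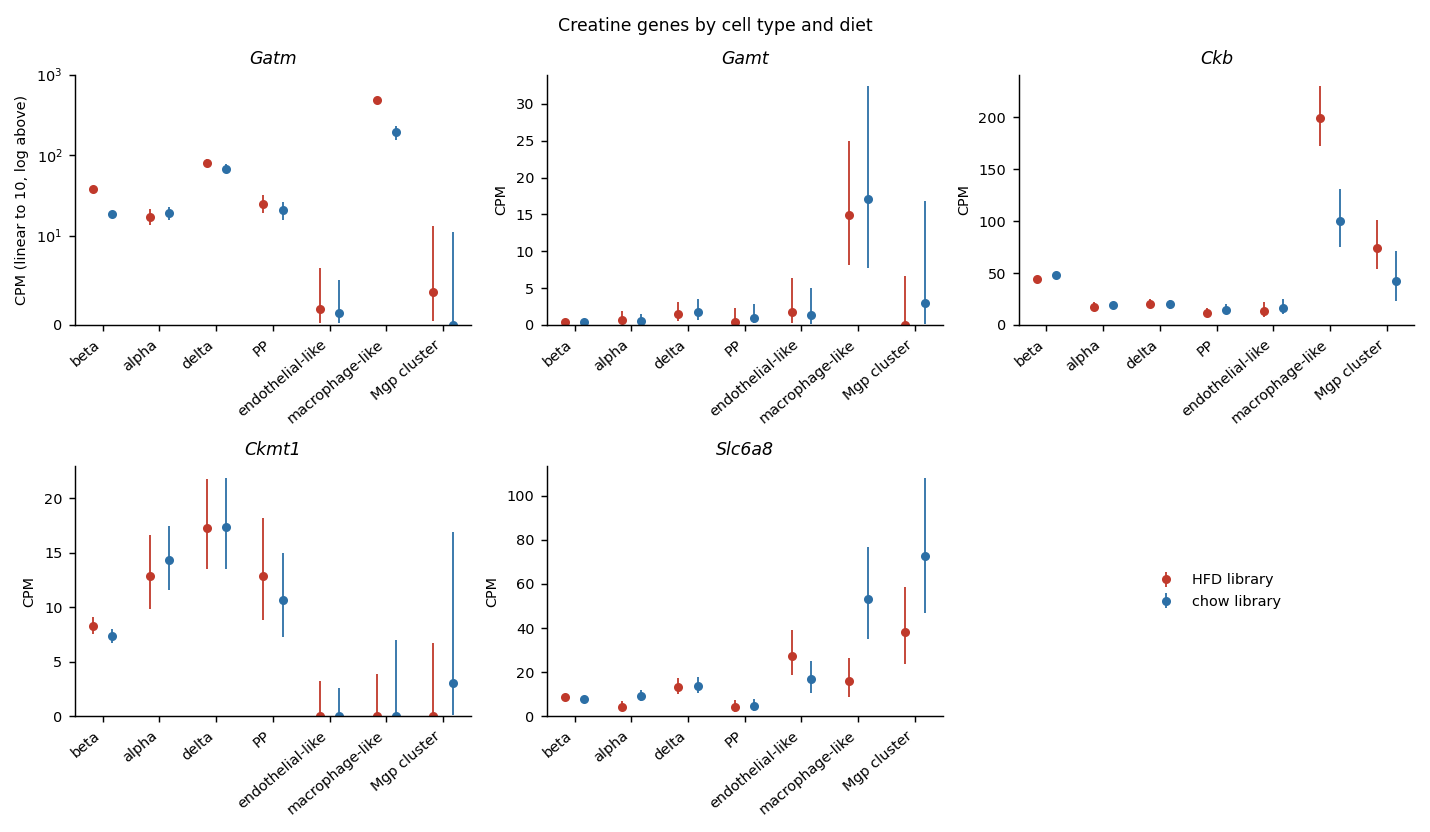
Level of each creatine gene in 7 cell types of the HFD (red, left) and chow (blue, right) library, in CPM; points are summed counts and bars exact Poisson 95% intervals, and the Gatm axis is linear to 10 CPM and logarithmic above. Gatm stands at 483 CPM in HFD and 191 CPM in chow macrophage-like cells and near 0 in endothelial-like cells, while Ckmt1 has no count in either of these types.

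Gatm (ENSMUSG00000027199), the first enzyme of synthesis, was the member whose beta cell level differed most between the libraries. It had 2041 counts or 38.0 CPM in HFD beta cells (36.4 to 39.7) and 1336 counts or 18.5 CPM in chow beta cells (17.5 to 19.5). The intervals are far apart. In beta cells the median ratio over the 12401 genes that reached a summed count of 50 was 0.20 on the log2 scale, in favour of HFD, and ratios are given relative to that median, with 0.5 counts added to each sum. On this scale Gatm was 0.84 higher in HFD (0.74 to 0.94), or 1.79-fold, and the plain CPM ratio was 2.05-fold. It ranked at percentile 98.3 of all genes of the type. A UMI of Gatm was seen in 38.9% of HFD and 21.4% of chow beta cells. HFD beta cells were deeper, with a median of 16722 UMIs against 14664.5 in chow, and after thinning every cell to 3500 UMIs the shares were 12.9% under HFD and 6.52% under chow. The difference was spread over many cells: the 5 beta cells with the most Gatm held 1.76% of its counts in HFD and 1.95% in chow.

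Free RNA can place UMIs in cells that do not express a gene. Its part in the Gatm level of beta cells was not tested, and related values are given here. Endothelial-like cells had a Gatm UMI in 1.53% of HFD and 1.12% of chow cells, at a median of 6890 UMIs in HFD and 7130 in chow, and in 0% of either after thinning. Acinar-like cells were few (2 HFD and 12 chow cells, of which 1 HFD and 8 chow cells passed the beta gate) and had 0 Gatm counts. With 3 counts as the limit, this allows up to 78.8 CPM in HFD and 21.4 CPM in chow. Both limits lie above the Gatm level of beta cells, so no conclusion is drawn from these 0 counts. The 16 acinar markers in the table, all with counts in beta cells, summed to 11.1 CPM in HFD and 33.6 CPM in chow beta cells. Beta cells with no acinar marker UMI had 37.2 CPM Gatm under HFD and 18.8 CPM under chow. Macrophage markers, 8 of 8 with counts in beta cells, summed to 60.5 CPM in HFD and 39.3 CPM in chow beta cells. For each 100 macrophage marker UMIs there were 62.8 Gatm UMIs in HFD and 47.1 in chow beta cells. In macrophage-like cells there were 1.92 in HFD and 0.818 in chow.

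Gatm also varied among beta cells within each library, along the share of insulin RNA. Beta cells with 20 to 40% insulin UMIs had 50.9 CPM in HFD and 33.0 CPM in chow. Those with 40 to 50% had 43.9 CPM in HFD and 23.6 CPM in chow, and those with 50 to 60% had 34.7 CPM in HFD and 15.9 CPM in chow. At 60% or more, the level was 32.9 CPM in HFD and 9.99 CPM in chow. Gatm was thus lower toward the insulin-rich end in both libraries, and the plain log2 ratio of HFD over chow ran from 0.62 in the insulin-poor cells through 0.90 and 1.12 to 1.71 in the insulin-rich cells. Since a larger insulin share leaves fewer UMIs for other genes, the same bins were read without hormone genes in the denominator. Gatm then was 91.4 CPM in the insulin-poor and 109 CPM in the insulin-rich HFD cells, while in chow it was 60.7 CPM in the insulin-poor and 32.6 CPM in the insulin-rich cells. On that scale the level was lower at the insulin-rich end in chow but not in HFD.

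By depth, the plain log2 ratio was 0.85 in beta cells under 10000 UMIs, 0.84 from 10000 to 15000, 1.18 from 15000 to 20000 and 1.21 above 20000 UMIs. In 6 clusters that held at least 100 beta cells of each library, Gatm was higher in HFD in 6 of 6. The relative log2 ratio within these clusters lay between 0.61 and 1.55. It was smallest in cluster 0, led by Mlxipl, at 37.3 CPM in HFD and 25.1 CPM in chow cells. The largest was in cluster 9, led by Npy, at 23.5 CPM in HFD and 8.75 CPM in chow cells. Clusters also differed in level: cluster 4, led by Pdyn, had 15.2 CPM in HFD and 7.32 CPM in chow, and cluster 8, led by Serpina3n, had 54.9 CPM in HFD and 28.5 CPM in chow. The mix of clusters differed between the libraries, with 1469 HFD but 304 chow beta cells in cluster 0, and 33 HFD but 963 chow beta cells in cluster 3. In cluster 3, led by Crybb3 and the heat shock genes Hspa1a and Hspa1b, Gatm was 34.8 CPM in HFD (22.0 to 52.2) and 17.1 CPM in chow (15.3 to 19.0). The intervals overlapped in clusters 7 and 13, also with under 100 HFD beta cells. Cluster 7 had 22.8 CPM in HFD (13.7 to 35.6) and 17.0 CPM in chow (14.7 to 19.6). Cluster 13 had 44.7 CPM in HFD (33.8 to 58.1) and 39.99 CPM in chow (29.3 to 53.3). Beta cells with 1% or more Ppy had 42.1 CPM in HFD and 33.0 CPM in chow. Their plain log2 ratio was 0.35 (-0.09 to 0.79), against 1.07 (0.97 to 1.17) with less Ppy.

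**Figure D2:**
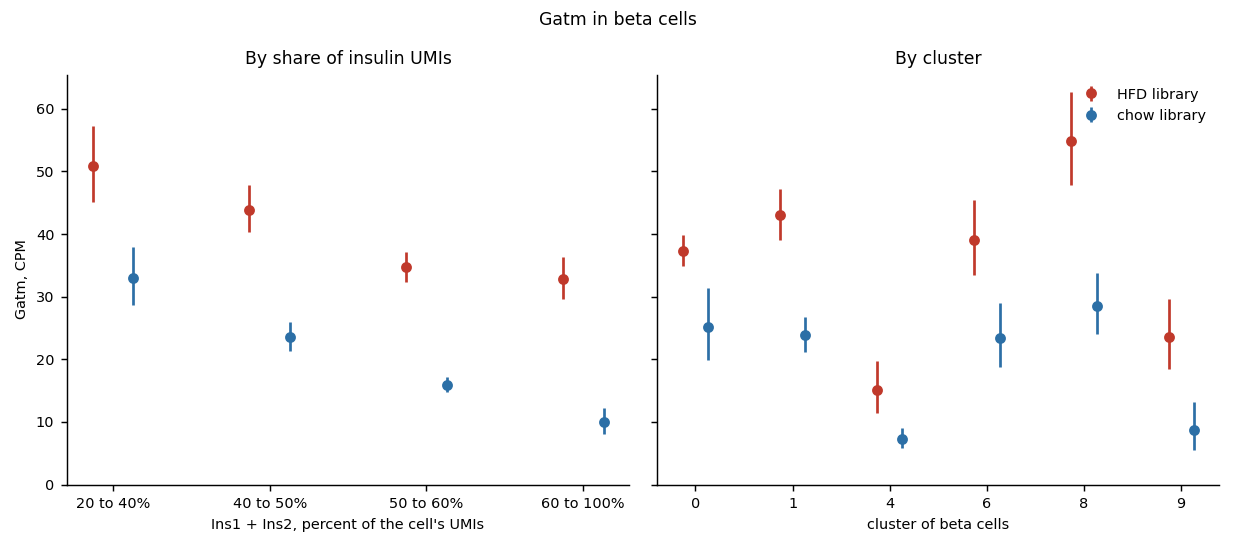
Gatm in beta cells of the HFD (red, left) and chow (blue, right) library, in CPM with exact Poisson 95% intervals, by the cell's insulin share (left panel) and by cluster for the 6 clusters with at least 100 beta cells of each library (right panel). The HFD point lies above the chow point in all 4 insulin bins and all 6 clusters, and the chow level falls to 9.99 CPM in the most insulin-rich cells.

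The other islet hormone cells did not show a Gatm difference of that size. Alpha cells had 17.0 CPM in HFD (78 counts) and 18.8 CPM in chow (129 counts), a relative log2 ratio of -0.14 with an interval of -0.57 to 0.27. Delta cells had 80.4 CPM in HFD and 67.8 CPM in chow, a ratio of 0.16 (-0.07 to 0.40). PP cells had 24.9 CPM in HFD and 20.6 CPM in chow, with 62 counts in each library and a ratio of 0.19 (-0.34 to 0.72). The upper bounds for alpha, delta and PP cells lie below the lower bound for beta cells, although the difference between types was not tested and the intervals hold no variation between mice.

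Delta cells had the highest Gatm level of the 4 hormone types in both libraries. Against beta cells they were 1.08 higher on the log2 scale in HFD and 1.88 higher in chow. Without hormone genes in the denominator these differences were 0.28 in HFD and 1.12 in chow. Alpha cells were at -1.15 against beta cells in HFD and 0.03 in chow, and at -1.88 in HFD and -0.76 in chow without hormone genes. After thinning, 25.8% of HFD and 24.1% of chow delta cells had a Gatm UMI. The acinar markers summed to 252 CPM in HFD and 333 CPM in chow delta cells, but Cela1 alone held 1008 of the 1053 counts in HFD and 1189 of the 1366 in chow. The other 15 acinar markers summed to 10.8 CPM in HFD and 43.2 CPM in chow delta cells, beside 8.07 CPM in HFD and 29.0 CPM in chow beta cells, and their part in the Gatm level of delta cells was not tested. Cela1 was set apart after its values were seen. Delta cells with less than 1% Ppy had 101 CPM in HFD and 88.5 CPM in chow, against 75.5 CPM in HFD and 63.3 CPM in chow for those with more.

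Macrophage-like cells held the highest Gatm level of the 7 plotted types. There were 455 counts in 74 HFD cells (483 CPM, 440 to 529) and 101 counts in 54 chow cells (191 CPM, 156 to 232). The relative log2 ratio was 1.26 (0.95 to 1.59). The median macrophage-like cell had 3 Gatm UMIs in HFD and 1 in chow, and the highest cell had 30 in HFD and 13 in chow. A few cells carried much of the signal, since the top 5 held 28.8% of the counts in HFD and 47.5% in chow. Without them the levels were 385 CPM in HFD and 114 CPM in chow. After thinning, 56.8% of HFD and 35.2% of chow macrophage-like cells had a Gatm UMI. Schwann-like cells, 11 in HFD and 17 in chow, had 66.9 CPM (9 counts) in HFD and 298 CPM (51 counts) in chow, the opposite order on few cells. The Mgp-led cluster had 2 counts in HFD and 0 in chow, and ductal-like cells had 0 counts in both, which at 3 counts allows up to 14.4 CPM in HFD and 39.3 CPM in chow.

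Gamt (ENSMUSG00000020150), the methyltransferase that completes synthesis, had few counts in islet hormone cells. Beta cells had 23 counts in HFD (0.429 CPM) and 26 in chow (0.360 CPM). Their sum of 49 lies just under the minimum of 50 for a ratio. A Gamt UMI was seen in 0.721% of HFD and 0.536% of chow beta cells, and in 1.53% of HFD and 1.12% of chow endothelial-like cells, at the depths given above. Alpha cells had 3 counts in HFD and 4 in chow, delta cells 6 in HFD and 7 in chow, and PP cells 1 in HFD and 3 in chow. Delta cells had a UMI in 1.49% of cells in both libraries, and PP cells in 0.625% in HFD and 1.48% in chow. With so few counts, and no measure of the Gamt background of its own, expression in the hormone cells could not be set apart from free RNA. Macrophage-like cells stood apart from these, with 14 counts in HFD (14.9 CPM, 8.12 to 24.9) and 9 counts in chow (17.0 CPM, 7.79 to 32.4). Endothelial-like cells had 2 counts in each library. How efficiently the 3′ end of Gamt RNA was captured was not tested.

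Slc6a8 (ENSMUSG00000019558), the creatine carrier, differed in beta cells by less than its counting interval. It had 464 counts or 8.65 CPM in HFD beta cells and 562 counts or 7.79 CPM in chow beta cells, a relative log2 ratio of -0.05 (-0.23 to 0.13). Delta cells had 13.4 CPM in HFD and 13.9 CPM in chow, a ratio of -0.14 (-0.69 to 0.42). PP cells had 10 counts in HFD and 14 in chow. Alpha cells were the exception, with 20 counts or 4.37 CPM in HFD (2.67 to 6.75) and 63 counts or 9.20 CPM in chow (7.07 to 11.8). Their relative log2 ratio was -1.05 (-1.88 to -0.33), and a UMI was seen in 4.42% of HFD and 7.67% of chow alpha cells, although HFD alpha cells were deeper (median 10875 UMIs, against 8395 in chow). After thinning the shares were 1.72% in HFD and 3.14% in chow. Against beta cells on the log2 scale, delta cells were at 0.64 in HFD and 0.85 in chow, but at -0.16 in HFD and 0.09 in chow without hormone genes in the denominator. Alpha cells were at -0.95 in HFD and 0.25 in chow, and at -1.68 in HFD and -0.54 in chow without them, so in chow the order of alpha and beta cells turned. Endothelial-like cells had 27.6 CPM in HFD (31 counts) and 16.7 CPM in chow (24 counts), with a relative log2 ratio of 0.70 whose interval, -0.11 to 1.53, spans 0. Macrophage-like cells had 15 counts in HFD (15.9 CPM) and 28 in chow (53.0 CPM). The Mgp-led cluster had 38.2 CPM in HFD and 72.7 CPM in chow, and Schwann-like cells 104 CPM in HFD and 105 CPM in chow. Without hormone genes, HFD macrophage-like cells (16.3 CPM) and chow endothelial-like cells (17.2 CPM) were below beta cells, which then had 21.5 CPM in HFD and 19.7 CPM in chow.

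Ckb (ENSMUSG00000001270), the cytosolic kinase, was higher in beta cells than in the other hormone cells in both libraries. It had 2373 counts or 44.2 CPM in HFD beta cells (42.5 to 46.0) and 3500 counts or 48.5 CPM in chow beta cells (46.9 to 50.2). Alpha cells had 17.5 CPM in HFD and 19.0 CPM in chow, delta cells 20.3 CPM in HFD and 19.8 CPM in chow, and PP cells 11.7 CPM in HFD and 14.9 CPM in chow. Relative to beta cells on the log2 scale, alpha cells were lower by 1.33 in HFD and by 1.35 in chow. The gap was wider without hormone genes in the denominator, with alpha at -2.06 in HFD and -2.14 in chow and delta at -1.92 in HFD and -2.05 in chow.

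In beta cells the relative log2 ratio of Ckb was -0.34 (-0.41 to -0.26), below 1.5-fold. The plain CPM ratio was -0.13, so most of the relative value comes from the shift of all genes by 0.20. A Ckb UMI was seen in 39.9% of HFD and 39.0% of chow beta cells. Within the 6 shared clusters the sign was mixed: the relative ratio was 0.37 in cluster 9 and 0.27 in cluster 1 but -0.66 in cluster 8, which had 32.0 CPM in HFD and 49.0 CPM in chow. The mean over the 6 clusters was -0.08. Ckb was 62.7 CPM in HFD and 56.5 CPM in chow beta cells with 20 to 40% insulin, and 30.1 CPM in HFD and 36.9 CPM in chow beta cells with 60% or more. Alpha, delta and PP cells had ratios of -0.12, -0.04 and -0.44, each with an interval that spans 0.

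Of the 7 plotted types, macrophage-like cells again had the highest Ckb level. They had 188 counts or 200 CPM in HFD (172 to 230) and 53 counts or 100 CPM in chow (75.2 to 131), a relative log2 ratio of 0.91 (0.47 to 1.38). Without the top 5 cells the levels were 158 CPM in HFD and 69.9 CPM in chow. The few Schwann-like cells had 66.9 CPM in HFD (9 counts) and 158 CPM in chow (27 counts), above macrophage-like cells in chow. Endothelial-like cells had 13.3 CPM in HFD and 16.7 CPM in chow. The HFD over chow difference for Ckb thus had opposite signs in macrophage-like and beta cells.

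Ckmt1 (ENSMUSG00000000308), the mitochondrial kinase, was found in all 4 hormone types with ratios whose intervals all span 0. Delta cells had 17.2 CPM in HFD and 17.3 CPM in chow, alpha cells 12.9 CPM in HFD and 14.3 CPM in chow, PP cells 12.9 CPM in HFD and 10.6 CPM in chow, and beta cells 8.26 CPM in HFD and 7.37 CPM in chow. The intervals of delta, alpha and PP cells overlap one another in both libraries. The relative log2 ratio was -0.04 in beta cells (-0.22 to 0.15), -0.15 in alpha cells (-0.64 to 0.33), -0.09 in delta cells (-0.58 to 0.40) and 0.19 in PP cells (-0.56 to 0.94). The beta cell value turned with the setting. It was 0.16 without centring, and within the 6 shared clusters the relative ratio was above 0 in 6 of 6, between 0.14 and 0.58 with a mean of 0.34. The counting interval spans 0 in each of these clusters. In cluster 8, with 36 counts in HFD and 28 in chow, the plain log2 ratio had an interval of -0.13 to 1.39. Clusters of the same libraries are not replicates. Relative to beta cells, delta cells were 1.07 higher on the log2 scale in HFD and 1.24 higher in chow, and 0.27 in HFD and 0.48 in chow without hormone genes in the denominator. Alpha cells were 0.65 higher than beta cells in HFD and 0.96 higher in chow, but at -0.07 in HFD and 0.17 in chow without hormone genes. Endothelial-like and macrophage-like cells had 0 counts of Ckmt1 in both libraries. At 3 counts this allows up to 2.67 CPM in HFD and 2.09 CPM in chow endothelial-like cells, and up to 3.18 CPM in HFD and 5.68 CPM in chow macrophage-like cells. In the GENCODE M21 annotation the gene overlaps Strc on the other strand. No source used here says how strand was used in the counting, and without it reads of the pair cannot be told apart.

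Detection of the kinases and of the synthesis enzyme overlapped among beta cells. After thinning to 3500 UMIs, Gatm was detected in 11.3% of the HFD beta cells with a Ckb UMI and in 13.1% of those without. The shares were 5.78% with and 6.64% without Ckb in chow. Among beta cells with a Ckmt1 UMI, Gatm was detected in 16.8% in HFD and 6.67% in chow, against 12.7% in HFD and 6.51% in chow for cells without. All of these exact intervals overlap.

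Counted over cell types, few members passed a 1.5-fold difference relative to the median of the type. In beta cells 1 of the 4 members with at least 50 counts was past 1.5-fold higher in HFD (Gatm), where 4.36% of all genes were, and 0 were past it lower, where 8.99% of all genes were. In alpha cells 0 of 4 were higher (4.38% of all genes) and 1 of 4 was lower (Slc6a8; 4.83% of all genes). None of 4 in delta cells was past 1.5-fold higher (4.82% of all genes) or lower (2.48%). In PP cells 0 of 3 were higher (8.18%) or lower (4.97%). Macrophage-like cells had 2 of 2 higher (Gatm and Ckb; 10.1% of all genes) and 0 lower (6.73%). Endothelial-like cells had 1 of 1 higher (Slc6a8; 6.9% of all genes) and 0 lower (4.24%). The 380 HFD and 378 chow cells outside all hormone gates had 2 of 3 higher (Gatm and Ckb; 7.81% of all genes) and 0 lower (4.63%), and they include the macrophage-like cells. Since these contrasts chose the members, nothing is read from the counts.

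**Figure D3:**
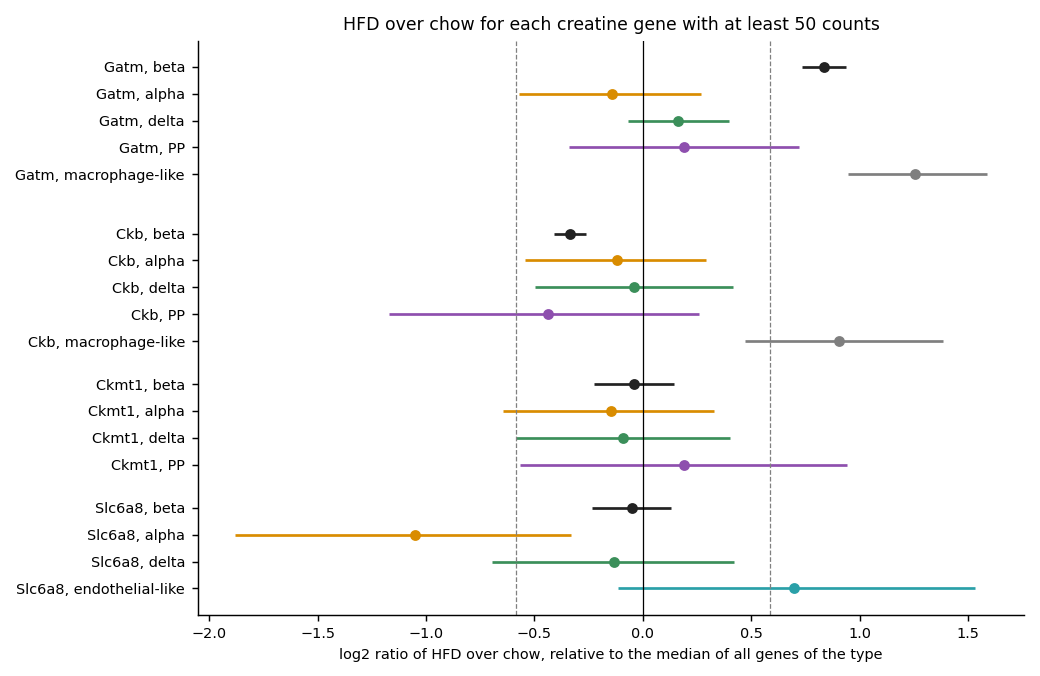
Log2 ratio of HFD over chow for each creatine gene and cell type with a summed count of at least 50, relative to the median of all genes of that type; bars are exact 95% intervals of counting error and dashed lines mark 1.5-fold. Gatm lies to the right in beta cells (0.84) and macrophage-like cells (1.26), Ckb to the right in macrophage-like cells (0.91) but not in beta cells (-0.34), and Slc6a8 to the left in alpha cells (-1.05).

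Between cell types the background is wider. Delta cells were past 2-fold above beta cells for 2 of the 4 members with enough counts in each library (Gatm and Ckmt1), and so were 33.1% of all genes in HFD and 33.9% in chow. They were past 2-fold below for 1 member in each library (Ckb), as were 4.2% of all genes in HFD and 4.14% in chow. Alpha cells were past 2-fold below beta cells for 2 members in HFD (Gatm and Ckb; 8.5% of all genes) and 1 in chow (Ckb; 6.03% of all genes). None was past 2-fold above, where 22% of all genes were in HFD and 23.1% in chow. PP cells were past 2-fold below beta cells for 2 members in HFD (Ckb and Slc6a8; 13.7% of all genes) and 1 in chow (Ckb; 12.9% of all genes). No member was past 2-fold above in PP cells, where 9.95% of all genes were in HFD and 8.94% in chow.

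Genes with the pattern most like each member were ranked by Pearson's r of log2(CPM + 1) over 12 points, the 6 types with at least 50 cells in each library, among 7111 genes. The points of 1 library share a depth and a preparation, and genes are not independent replicates. For Gatm the highest were Frrs1 (r = 0.97), Syngr1, Stxbp2, Ptpn6 and Csf2ra (0.95). For Gamt they were Tmem106a, Ctsa, Lgmn, Cd68 and Ctsd, all at 0.99. For Ckb they were Il1b (0.95), Sgpl1, Serp1, Tnfaip8 and Myo5a, and for Slc6a8 Mospd2 (0.96), Capn1, Bloc1s6, Rab7 and Srxn1. Ckmt1 was followed by Hnf1aos1, Isl1, Rgs17 and Atp6v0e2, all at 0.99. Cd68, a lysosomal protein of macrophages, and Ptpn6, a phosphatase of blood cells, are known for expression in macrophages, and macrophage-like cells had the highest Gatm, Gamt and Ckb levels of the 6 types compared here. Isl1, a transcription factor of islet hormone cells, marks the types in which Ckmt1 was found. Gatm and Ckb had r = 0.74 with each other, and Gatm and Ckmt1 0.06.

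Genes that feed or draw on the creatine route were read in beta cells by list. Of the 3 other creatine genes only Slc16a12, a creatine carrier of the monocarboxylate transporter family, had enough counts. It was 40.7 CPM in HFD and 34.7 CPM in chow beta cells, a relative log2 ratio of 0.03. It was at a like level in delta cells (44.0 CPM in HFD and 39.8 CPM in chow) and alpha cells (41.7 CPM in HFD and 46.1 CPM in chow), and had no count in macrophage-like cells. The muscle kinase Ckm had 7 counts in HFD and 18 in chow beta cells, and Ckmt2, the muscle mitochondrial kinase, had 0 in both.

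Genes of arginine, glycine and ornithine supply and use lay mostly below the median ratio, 11 below and 2 above. The 2 above were Arg1 (326 counts in HFD and 275 in chow) and Gldc (27 in HFD and 29 in chow). Their relative log2 ratios were 0.47 for Arg1 and 0.12 for Gldc. Of the 13 genes of this list with enough counts, 0 were past 1.5-fold higher, where 4.36% of all beta cell genes were. Past it lower were 5, where 8.99% of all genes were, and the median relative log2 ratio was -0.35. The 5 were Phgdh, Psat1 and Psph, the enzymes of serine synthesis, Shmt2, which makes glycine from serine in mitochondria, and Asl, which makes arginine. Phgdh was 7.12 CPM in HFD and 17.3 CPM in chow (-1.49), and Psph was 10.3 CPM in HFD and 24.5 CPM in chow (-1.45). Odc1, which turns ornithine into putrescine, was 43.1 CPM in HFD and 52.9 CPM in chow (-0.50). The arginine carrier Slc7a2 was 38.7 CPM in HFD and 33.7 CPM in chow (0.00). In alpha cells the same list had 2 of 9 genes past 1.5-fold higher (4.38% of all alpha cell genes) and 0 lower (4.83%), with a median of 0.29. Delta cells had 0 of 11 higher (4.82% of all genes of the type) and 2 lower (2.48%), with a median of -0.16. PP cells had 1 of 7 higher (8.18%) and 2 lower (4.97%), with a median of -0.09. Endothelial-like cells had 0 of 6 higher (6.9%) and 3 lower (4.24%), with a median of -0.64. Macrophage-like cells had 1 of 4 higher (10.1%) and 1 lower (6.73%), with a median of 0.02.

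The methyl supply list holds genes linked to the making and the use of S-adenosylmethionine, the methyl donor of Gamt. It had 12 genes with enough counts, 0 past 1.5-fold higher (4.36% of all beta cell genes) and 3 lower (8.99%), with a median of -0.25. The lower genes included Pemt and Gnmt, which use S-adenosylmethionine, but not Mat2a. Mat2a, the synthetase, was 31.4 CPM in HFD and 37.5 CPM in chow (-0.46). Pemt, another user of methyl groups in phosphatidylcholine synthesis, was 5.05 CPM in HFD and 10.2 CPM in chow (-1.21), and Gnmt, the glycine N-methyltransferase, was 0.745 CPM in HFD and 1.32 CPM in chow (-1.01). Ahcyl1, an inactive relative of the S-adenosylhomocysteine hydrolase, was 70.6 CPM in HFD and 51.1 CPM in chow (0.26).

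Other enzymes move phosphate between nucleotides. Of the 10 genes for nucleotide phosphotransfer, 1 was past 1.5-fold higher (Ak5, an adenylate kinase, 172 counts in HFD and 126 in chow) and 3 were lower, with a median of -0.31. Nme1, a nucleoside diphosphate kinase, was 123 CPM in HFD and 269 CPM in chow (-1.33), and Ak4, a mitochondrial adenylate kinase homologue, had 8 counts in HFD and 51 in chow (-2.37). Guk1, the guanylate kinase, was 164 CPM in HFD and 196 CPM in chow (-0.46). For mitochondrial ADP and ATP exchange, 2 of 5 genes were past 1.5-fold lower with a median of -0.52. These were the adenine nucleotide carriers Slc25a5 (94.9 CPM in HFD and 135 CPM in chow, -0.71) and Slc25a4 (93.0 CPM in HFD and 126 CPM in chow, -0.64). Without centring, Slc25a5 was at -0.51 and Slc25a4 at -0.44, both short of 1.5-fold. The subunits of AMPK, the kinase that senses AMP, had 0 of 6 past 1.5-fold either way and a median of 0.06. Prkaa1 was 26.6 CPM in HFD and 22.7 CPM in chow (0.03), Prkag1 was 17.0 CPM in HFD and 17.6 CPM in chow (-0.26), and Prkaa2 was 3.71 CPM in HFD and 2.62 CPM in chow (0.30). Beside these lists stand the 4.36% and 8.99% of all beta cell genes past 1.5-fold higher and lower, and a median of 0 by construction.

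**Figure D4:**
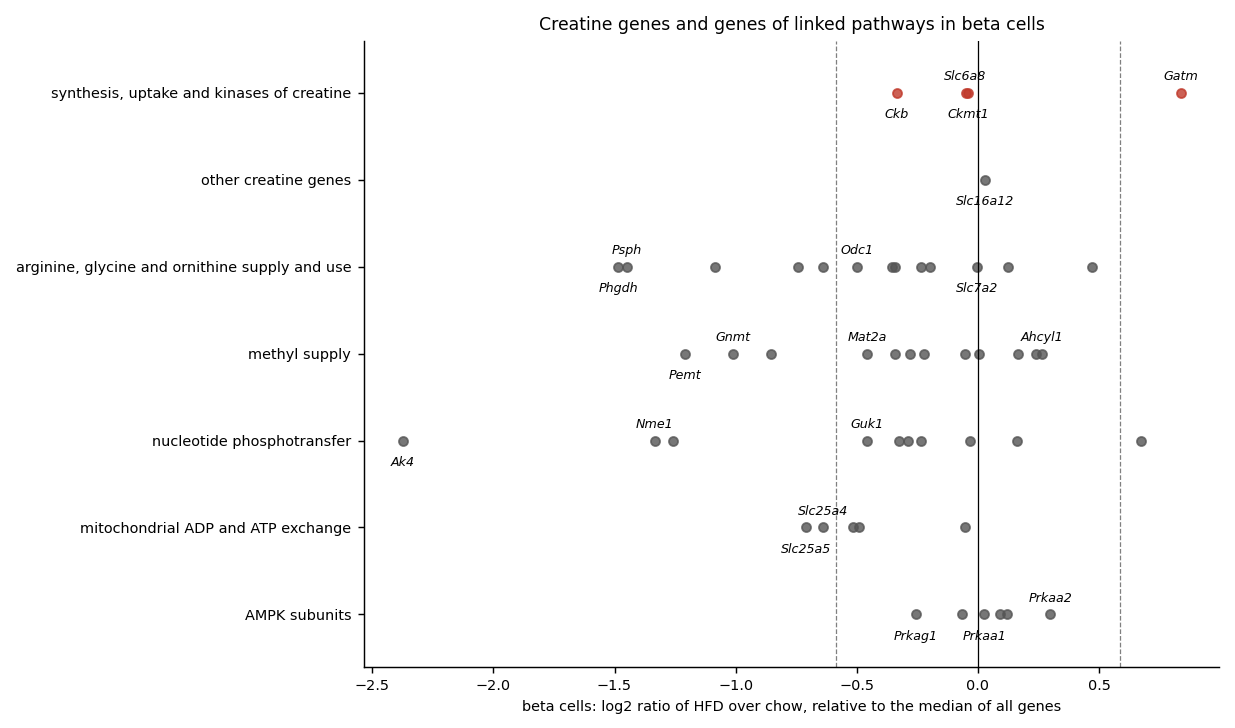
Log2 ratio of HFD over chow in beta cells, relative to the median of all genes, for the creatine genes (red) and for genes of 6 linked lists (grey) with at least 50 counts; dashed lines mark 1.5-fold and named genes are those described in the text. Gatm (0.84) lies farthest right of all genes drawn, whereas serine synthesis, methyl supply, nucleotide phosphotransfer and ADP and ATP exchange hold genes far to the left.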

How the data were processed

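Islet cells of HFD and chow mice were measured by 10x Genomics 3′ v2 single-cell RNA sequencing, 1 library for each diet. The values deposited are raw UMI counts, whole numbers for each gene in each barcode. Per the submitters' processing notes the authors used Cell Ranger 2.1.0. Genome build, annotation and the rule for keeping barcodes are not stated in the labels or files. The members and gene lists were chosen with earlier results of these data known.

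All 4539 HFD and 6509 chow barcodes were used, and 45 barcode sequences occurred in both libraries. Cells were typed by hormone share. Other cells came from Leiden clusters of both libraries together (scanpy 1.11.5, igraph 0.11.9; 2000 variable genes without the members, 30 principal components, 15 neighbours, resolution 1; 24 clusters), named from marker lists. The automatic threshold of Scrublet marked 0.110% of HFD and 0.0461% of chow barcodes and so had not worked; doublets were kept, and leaving out the 5% with the highest scores was an alternative. The labels state under 5% doublets.

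Counts were summed by type and library and scaled to CPM. Log2 ratios of HFD over chow used 0.5 added counts, were taken relative to the median of genes with a summed count of at least 50, and were set against 1.5-fold (2-fold between types). Intervals are exact Poisson for CPM, Clopper-Pearson for shares and, through the binomial, for ratios; all are 95% and cover counting error only. The calculation of ratios was tested on simulated data. Alternatives used TMM factors (edgeR 4.0.16), median-of-ratios factors, other cell filters, thinning to 3500 UMIs and a denominator without hormone genes. Within each linked list, the genes named were the 2 with the highest level and the 2 with the ratio farthest from 0 in beta cells. Psat1, Shmt2, Asl, Arg1, Gldc, Ckmt2 and Ak5 were added after their values were seen. Of the genes most like Ckmt1, 1 is not reported here.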

Additional observations from a re-analysis of the deposited data

Results flagged for a closer look

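Ckb, the cytosolic creatine kinase, lay on opposite sides of the median of all genes in 2 cell types. Its relative log2 ratio of HFD over chow was 0.91 in macrophage-like cells (188 counts in HFD and 53 in chow) and -0.34 in beta cells (2373 counts in HFD and 3500 in chow). In beta cells the plain log2 ratio was -0.13. Within the 6 shared beta clusters the sign was mixed, from 0.37 in cluster 9 to -0.66 in cluster 8, with a mean of -0.08. The top 5 macrophage-like cells held 29.3% of the Ckb counts in HFD and 39.6% in chow. The difference between the types was not tested, since each diet has 1 library.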

How the results depend on the processing

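Gatm in beta cells stayed above 1.5-fold under all 11 alternatives, with relative log2 ratios of 0.77 to 1.04, the highest being the plain CPM ratio. Without centring, Ckb was -0.13, Ckmt1 0.16 and Slc6a8 0.15, which follows from the shift of 0.20 of all beta cell genes. Ckb was -0.26 as the mean of the cells' own CPM. As a mean over the 6 shared clusters, an alternative chosen after seeing the data, Ckb was -0.078 and Ckmt1 0.34; the cause was not tested. Slc6a8 in alpha cells lay between -1.32 and -0.87 under 10 alternatives. Thinning left it 7 counts in HFD and 26 in chow, under the minimum of 50, so the count of lower members in alpha cells became 0. In PP cells 1 member was lower, in place of 0, without a minimum count, without the highest 5% of Scrublet scores, with the cells' own CPM and without cells rich in acinar RNA. Linked genes past 1.5-fold higher in beta cells numbered 2, in place of 1, with plain CPM or no minimum count. With plain CPM, Slc25a5 (-0.51), Slc25a4 (-0.44), Asl (-0.54) and Shmt2 (-0.44) were no longer past 1.5-fold lower in beta cells. Delta over beta cells, the members past 2-fold higher were 0 in HFD and 1 in chow without hormone genes, and 1 in each library after thinning. In chow, alpha over beta cells gave 1 higher member with single-hormone cells only, and PP over beta cells gave 1 higher and 2 lower after thinning. No sign of a called value turned. No paired analysis was possible because each diet has 1 library.

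With 1 library per diet, variation between mice is unmeasured. PP cells, macrophage-like cells and Gamt rest on few counts.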
